A study of Mus musculus with 4 samples.

Results

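The variable segments of the T cell receptor beta chain, the Trbv genes, were followed in CD8+ T cells enriched from mouse tumours. Members were the rows whose Ensembl identifier carries a GRCm38 symbol that begins with Trbv in GENCODE release M21. This gave 27 of 36464 rows, 22 annotated as functional V genes and 5 as pseudogenes. A further 8 annotated Trbv pseudogenes were not analysed here. One group of libraries came from wild-type male C57BL/6 mice that carried percutaneous tumour grafts and received intraperitoneal SIGLEC15 antibody. SIGLEC15 is a sialic acid-binding lectin examined as a target of immune checkpoint therapy. The other group came from mice of the same strain, sex, genotype and graft that received IgG in place of the antibody. Treatment lasted 2 weeks with 6 mice per group, grafts were collected on day 19, and 3 cell pellets were mixed for each library, so there were 2 libraries per treatment. The line of the graft is not given in the labels, and the spread between libraries is a spread between pools, not between mice.

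A T cell builds its beta chain by joining 1 V segment to a D and a J segment and splicing the product to a constant segment, Trbc1 or Trbc2. The V segment carries the leader, the first and second antigen contact loops and the first codons of the third loop, CDR3. The descendants of a T cell keep its rearrangement, so an expanded clone adds RNA of a particular V segment to a tissue. In bulk RNA the share of a V segment therefore depends on the number of cells that use it and on the RNA each cell makes, and these cannot be told apart here. RNA of the 3 mixed pellets cannot be told apart either.

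The germline 3′ ends of the segments that carried most of the signal, with Trbv12-1 as the closest relative of Trbv12-2, show where the third loop begins and how far these segments differ. The last 45 bases of each are given 5′ to 3′ from the GENCODE M21 transcripts (GRCm38, plus strand), and capitals mark the codon of the conserved cysteine that opens CDR3.
Trbv15 (chr6:41141614-41141658): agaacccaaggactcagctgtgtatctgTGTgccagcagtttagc
Trbv12-2 (chr6:41119320-41119364): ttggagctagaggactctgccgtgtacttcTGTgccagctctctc
Trbv12-1 (chr6:41114023-41114067): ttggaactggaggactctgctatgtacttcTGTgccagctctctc
Trbv1 (chr6:40891841-40891885): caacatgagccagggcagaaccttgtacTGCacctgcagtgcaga
Trbv29 (chr6:41271837-41271881): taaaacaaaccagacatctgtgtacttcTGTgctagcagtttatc
Trbv2 (chr6:41047951-41047995): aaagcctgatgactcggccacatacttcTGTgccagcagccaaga
Trbv13-2 (chr6:41121788-41121832): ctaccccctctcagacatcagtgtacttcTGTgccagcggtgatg
Trbv16 (chr6:41152186-41152230): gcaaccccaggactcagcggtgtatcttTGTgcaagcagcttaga
Of these 8 segments, 5 open CDR3 with the same 9 bases, tgtgccagc. Trbv12-1 and Trbv12-2 differ at 4 of the 45 bases. Trbv15 and Trbv12-2 were 65.2% identical over 342 aligned bases of their transcripts. Over the whole transcripts, Trbv12-1 and Trbv12-2 were 88.3% identical and shared no stretch of 50 bases. Among 351 pairs of segments, 2 shared such a stretch, namely Trbv12-2 with the pseudogene Trbv12-3 and Trbv13-2 with Trbv13-3. Reads could be split within these pairs by the counting.

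Depth and purity set the frame for all values. The deposited RPKM values gave back whole reads, with 15696667 and 14854803 counted reads in the anti-SIGLEC15 libraries and 16026198 and 15512090 in the IgG libraries. Reads in Trbv segments numbered 4508 and 5234 with anti-SIGLEC15, and 1387 and 5490 with IgG. IgG replicate 1 stood apart from the other libraries. The summed RPKM of 13 T cell identity genes was 4036 and 4104 with anti-SIGLEC15, against 1254 and 4487 with IgG. The 8 hepatocyte or hepatoma markers summed to 1965 and 971 RPKM with anti-SIGLEC15, against 4537 and 925 RPKM with IgG. In red cell markers, 6 of 6 lay lower in both anti-SIGLEC15 libraries, with sums of 113 and 19.9 RPKM against 691 and 1929 RPKM with IgG. Of all genes tested, 6.02% lay lower in this way. In B and plasma cell markers, 6 of 7 lay higher, as did 12.1% of all genes tested, with sums of 114 and 137 RPKM with anti-SIGLEC15 against 25.3 and 69.7 RPKM with IgG. The 6 neutrophil markers summed to 214 and 367 RPKM with anti-SIGLEC15, against 841 and 67.4 RPKM with IgG. The part of these admixtures in the results below was not tested.

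Trbv15 (older name Tcrb-V12; chromosome 6, 41141188 to 41141658) was the leading segment in both anti-SIGLEC15 libraries and in neither IgG library. It measured 417 and 716 RPKM with anti-SIGLEC15, against 9.61 and 294 RPKM with IgG. Its share of the summed Trbv RPKM was 54.1% and 75.1% with anti-SIGLEC15, against 4.62% and 31.7% with IgG. Both anti-SIGLEC15 libraries therefore lay above both IgG libraries in level and in share, while the IgG pair itself was far apart. Counted in reads, Trbv15 held 53.7% (95% Wilson interval 52.2 to 55.2%) and 75.2% (74.0 to 76.3%) of Trbv reads with anti-SIGLEC15. With IgG it held 4.11% (3.19 to 5.29%) and 30.8% (29.6 to 32.0%). These intervals cover counting error only, and reads of an amplified library are not independent molecules. The mean share was 64.6 ± 14.9% with anti-SIGLEC15 and 18.2 ± 19.2% with IgG (SD, n = 2 each), a difference of 46.4 percentage points. The exact two-sided permutation test gave p = 0.333, the smallest value that 2 libraries against 2 allow, so no share in these data can pass the threshold of 0.05. Without IgG replicate 1 the difference was 32.9 percentage points.

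**Figure D1:**
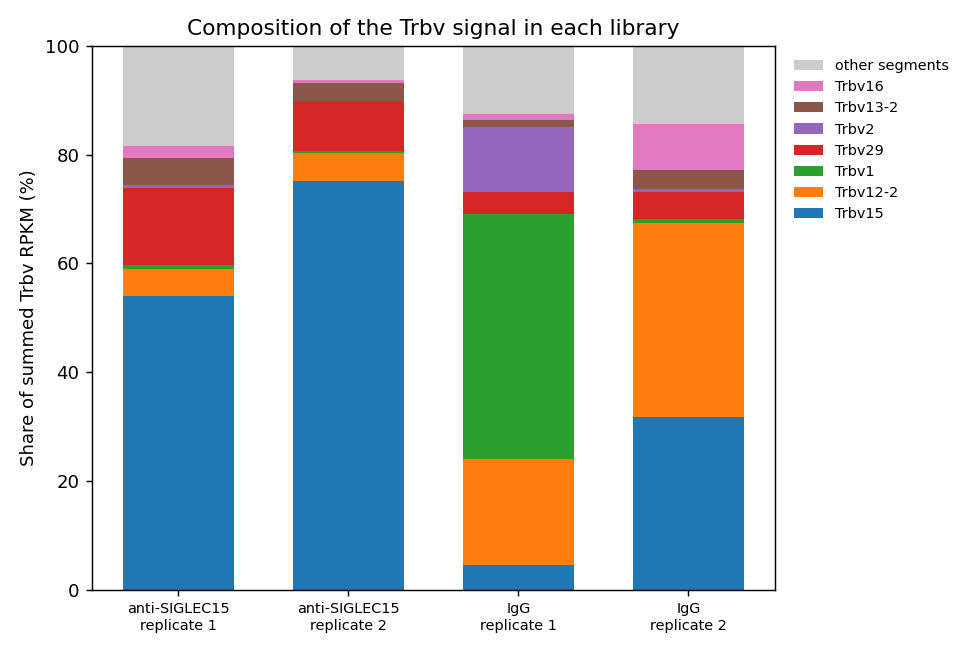
Stacked bars show the share of the summed Trbv RPKM (%, linear axis) held by the 7 segments with a mean share of at least 3% and by all other segments, for the anti-SIGLEC15 libraries (left) and the IgG libraries (right). Trbv15 fills 54.1% and 75.1% of the anti-SIGLEC15 bars, whereas Trbv1 leads in IgG replicate 1 with 45.2% and Trbv12-2 in IgG replicate 2 with 35.7%.

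Trbv29 (older name Tcrb-V7; chromosome 6, 41271394 to 41271881) ranked second in both anti-SIGLEC15 libraries. GENCODE M21 annotates it as a functional V gene, and RefSeq on GRCm38.p6 lists it as a pseudogene. It measured 109 and 86.6 RPKM with anti-SIGLEC15, against 8.31 and 45.3 RPKM with IgG. In shares this was 14.1% and 9.08% with anti-SIGLEC15, against 3.997% and 4.88% with IgG. The groups did not overlap in level or in share, and the lowest anti-SIGLEC15 share was 9.08%, above 4.88% in the highest IgG library. The mean share was 11.6 ± 3.56% with anti-SIGLEC15 and 4.44 ± 0.626% with IgG (SD, n = 2 each). The difference of 7.16 percentage points was 4.65 without anti-SIGLEC15 replicate 1.

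Trbv12-2 (older name Tcrb-V5.1; chromosome 6, 41118851 to 41119364) led IgG replicate 2 and ranked second in IgG replicate 1. Its level was 38.1 and 48.6 RPKM with anti-SIGLEC15, against 40.2 and 331 RPKM with IgG, so the levels of the groups overlapped. Its share did not overlap, with 4.94% and 5.10% with anti-SIGLEC15 against 19.3% and 35.7% with IgG. The level in IgG replicate 1 was close to that in the anti-SIGLEC15 libraries, in a library with a summed Trbv level of 208 RPKM against 771 and 953 RPKM. Its relative Trbv12-1 held 0.808% and 0.327% with anti-SIGLEC15, and 0.772% and 2.52% with IgG.

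Trbv1 (older name Tcrb-V2; chromosome 6, 40891229 to 40891885), the V segment farthest upstream in the locus, dominated IgG replicate 1. It measured 5.81 and 5.004 RPKM with anti-SIGLEC15, against 94.0 and 7.11 RPKM with IgG. The share in IgG replicate 1 was 45.2% (628 of 1387 Trbv reads, Wilson interval 42.7 to 47.9% of reads), and the other libraries held between 0.525% and 0.767%. The library with the fewest T cell transcripts thus had the highest Trbv1 level. Trbv2 (older name Tcrb-V4), the next segment downstream, showed the same library as highest, with 4.32 and 0.721 RPKM with anti-SIGLEC15 against 24.7 and 5.41 RPKM with IgG. Its share was 0.561% and 0.0757% with anti-SIGLEC15, against 11.9% and 0.583% with IgG. In share, IgG replicate 2 lay close to both anti-SIGLEC15 libraries for Trbv1. For Trbv2 it lay close to anti-SIGLEC15 replicate 1 and above replicate 2. The differences in mean share without IgG replicate 1 were -0.13 percentage points for Trbv1 and -0.27 for Trbv2. In reads, Trbv1 overlapped between the groups, with 0.843% and 0.592% of Trbv reads with anti-SIGLEC15 against 45.3% and 0.838% with IgG.

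Trbv16 and Trbv13-2 also exceeded a mean share of 3%, and both overlapped between the groups. Trbv16 (older name Tcrb-V11) was highest in IgG replicate 2, with 2.22% and 0.568% with anti-SIGLEC15 against 1.13% and 8.33% with IgG. Trbv13-2 (older name Tcrb-V8.2) held 4.86% and 3.20% with anti-SIGLEC15, against 1.24% and 3.54% with IgG. The Trbv13 family, which is widely used by peripheral T cells of C57BL/6 mice, summed to 7.10% and 5.02% with anti-SIGLEC15 and to 6.91% and 4.66% with IgG, a spread within each treatment larger than the difference of 0.273 percentage points between their means. Trbv13-1, at 4.35%, was the largest family member in IgG replicate 1, and Trbv13-2 was the largest in the other libraries.

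**Figure D2:**
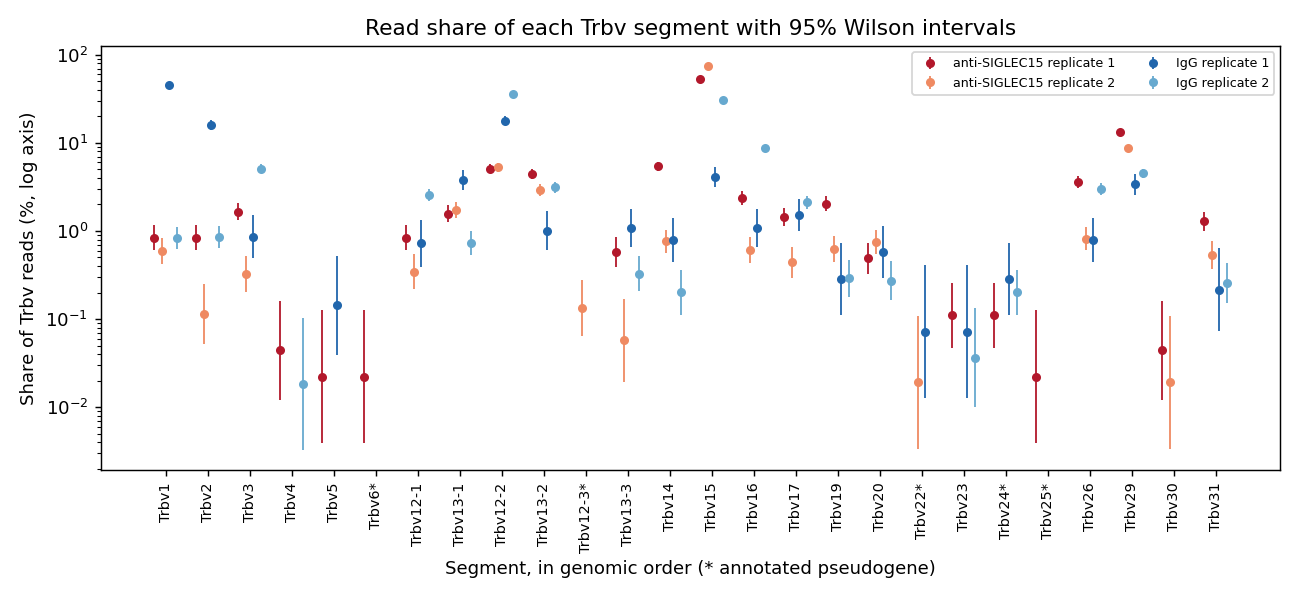
Points give the share of Trbv reads (%, log axis) of each of the 26 segments with a read in any library, in genomic order, and bars are 95% Wilson intervals; a library without a read has no point. The anti-SIGLEC15 points lie above the IgG points at Trbv15 and Trbv29, and IgG replicate 1 stands alone at Trbv1 with 45.3%.

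The remaining 20 rows held 18.4% and 6.32% of the signal with anti-SIGLEC15 and 12.6% and 14.4% with IgG, and 19 of them had a read in at least 1 library. The highest of them differed between libraries, with Trbv14 at 5.48% in anti-SIGLEC15 replicate 1, Trbv13-1 at 1.76% in anti-SIGLEC15 replicate 2, Trbv13-1 at 4.35% in IgG replicate 1 and Trbv3 at 4.29% in IgG replicate 2. Trbv14 (older name Tcrb-V13) measured 42.2 and 7.32 RPKM with anti-SIGLEC15, against 1.87 and 1.93 RPKM with IgG. Its levels lay apart, but its shares of 5.48% and 0.768% with anti-SIGLEC15 overlapped those of 0.897% and 0.208% with IgG. Trbv19 (older name Tcrb-V6) and Trbv31 were less abundant segments whose shares of RPKM did not overlap. Trbv19 held 1.34% and 0.412% with anti-SIGLEC15 (92 and 33 reads), against 0.212% and 0.196% with IgG (4 and 16 reads). Trbv31, which lies downstream of the constant segments in the opposite orientation and is joined by inversion, held 1.15% and 0.473% with anti-SIGLEC15 (58 and 28 reads), against 0.215% and 0.233% with IgG (3 and 14 reads). In reads, the intervals of anti-SIGLEC15 replicate 2 overlapped those of both IgG libraries for each of these segments. For Trbv19 the interval was 0.449 to 0.884% in anti-SIGLEC15 replicate 2, against 0.112 to 0.739% and 0.179 to 0.473% with IgG. For Trbv31 it was 0.370 to 0.772% in anti-SIGLEC15 replicate 2, against 0.0736 to 0.634% and 0.152 to 0.428% with IgG.

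Pseudogene segments cannot encode a receptor chain, and they were near the limit of detection. Together they held 0.179% and 0.157% with anti-SIGLEC15 (7 and 8 reads), against 0.449% and 0.220% with IgG (5 and 11 reads). The difference in mean share was -0.167 percentage points, and -0.052 without IgG replicate 1. Trbv24 had the highest mean share, with 5 and 0 reads with anti-SIGLEC15 and 4 and 11 reads with IgG. GENCODE annotates Trbv24 as a pseudogene and RefSeq as a V segment. Trbv12-3 had 7 reads in anti-SIGLEC15 replicate 2 and 0 in the other libraries. Among functional segments, Trbv21 had 0 reads in all 4 libraries, and 3 reads would correspond to 0.0665% and 0.0573% of Trbv reads with anti-SIGLEC15 and to 0.216% and 0.0546% with IgG. Trbv4, Trbv5, Trbv23 and Trbv30 had at most 5 reads in any library, so differences in these segments were not detectable at this depth.

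Over all segments, 5 of the 26 with a read had a share in each anti-SIGLEC15 library that exceeded both IgG libraries, and 5 had a lower share (19.2% in each direction). The higher ones were Trbv15, Trbv29, Trbv19, Trbv31 and Trbv30, and the lower ones were Trbv1, Trbv2, Trbv12-2, Trbv17 and Trbv24. Trbv17 held 1.44% and 0.434% with anti-SIGLEC15, against 1.69% and 2.16% with IgG. Counted in reads, its interval in anti-SIGLEC15 replicate 1 (1.13 to 1.83%) overlapped those with IgG (0.992 to 2.30% and 1.76 to 2.53%). Trbv30 rested on 2 and 1 reads with anti-SIGLEC15 against 0 and 0 with IgG, and its difference, like that of Trbv24, was not detectable at this depth. The same count over 89 alpha chain V segments with a read gave 14.6% higher and 7.87% lower. Shares of a library sum to 100%, so the large share of Trbv15 lowers all others. With Trbv15 left out of the sum, a choice made after the data were seen, 7 segments were higher (Trbv13-2, Trbv14, Trbv19, Trbv20, Trbv29, Trbv30 and Trbv31) and 1, the pseudogene Trbv24, was lower. Among the remaining segments Trbv29 then held 30.8% and 36.5% with anti-SIGLEC15, against 4.19% and 7.15% with IgG. Trbv12-2 then held 10.8% and 20.5% with anti-SIGLEC15 and 20.3% and 52.3% with IgG, so its shares overlapped.

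In levels, limma on log2(RPKM + 1) called none of the 17 Trbv segments tested, those that reached 1 RPKM in 2 or more libraries. Of all 12484 genes in the fit, 0 (0%) reached the threshold of 0.05 after Benjamini-Hochberg adjustment. Before adjustment 146 genes had a p under 0.05, and 6 of these were Trbv segments. Fitted to the recovered reads, limma-voom also made 0 calls in 19549 genes, and 185 genes had an unadjusted p under 0.05, including 5 of 18 Trbv segments. Among the 17, 7 had both anti-SIGLEC15 libraries above both IgG libraries, a pattern found in 12.1% of all genes tested, and 2 had both below, found in 6.02%. The median log2 fold change was 0.78 over the 17 segments and 0.02 over all genes. Its sign was not stable. The Trbv median was -0.34 without IgG replicate 1, 1.44 without IgG replicate 2, -0.06 without anti-SIGLEC15 replicate 1, -0.30 over the 13 segments left by a filter at 5 RPKM, and 0.27 with limma-voom. The filter keeps a segment that passes through the group where it is high, so these counts describe the tested segments alone.

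On the log2(RPKM + 1) scale the fold change in log2 units, anti-SIGLEC15 over IgG, was 3.29 (SE 1.56) for Trbv15 and 2.24 (SE 0.78) for Trbv29. It was 2.71 (SE 0.80) for Trbv14, 1.89 (SE 0.56) for Trbv19 and 1.78 (SE 0.52) for Trbv31. Values below 0 were found for Trbv12-2, at -1.41 (SE 0.99), and Trbv1, at -2.12 (SE 1.16). The limma adjusted p of each of these 7 was 0.9999. Calls appeared when an IgG library was left out, with the lone library assumed to vary like the anti-SIGLEC15 pair. Without IgG replicate 1, limma called 3 segments higher and 5 lower among 135 genes in all, and without IgG replicate 2 it called 10 higher and 2 lower among 2251. Trbv15 had a log2 fold change of 0.89 without IgG replicate 1 and 5.69 without IgG replicate 2. In the same pair of fits Trbv29 had 1.08 and 3.40, Trbv12-2 had -2.92 and 0.10, and Trbv1 had -0.34 and -3.89. Trbv14 had 1.52 without anti-SIGLEC15 replicate 1 and 3.90 without anti-SIGLEC15 replicate 2.

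Like the constant segments, the summed Trbv level was lowest in IgG replicate 1, but the libraries with the highest sums differed. The summed Trbv level was 771 and 953 RPKM with anti-SIGLEC15, against 208 and 928 RPKM with IgG. IgG replicate 1 was thus low, and IgG replicate 2 lay between the anti-SIGLEC15 libraries. The constant segments Trbc1 and Trbc2, which encode the part of the chain common to all beta chains, summed to 2027 and 1965 RPKM with anti-SIGLEC15 and 538 and 2304 RPKM with IgG. The ratio of summed Trbv to summed Trbc RPKM was 0.380 and 0.485 with anti-SIGLEC15, and 0.386 and 0.403 with IgG. The signal per constant segment was therefore alike in IgG replicate 1 and IgG replicate 2, although their levels differed. The mean log2 summed level was 0.96 higher with anti-SIGLEC15 (exact permutation test, p = 0.667), and without IgG replicate 1 the difference was -0.11.

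**Figure D3:**
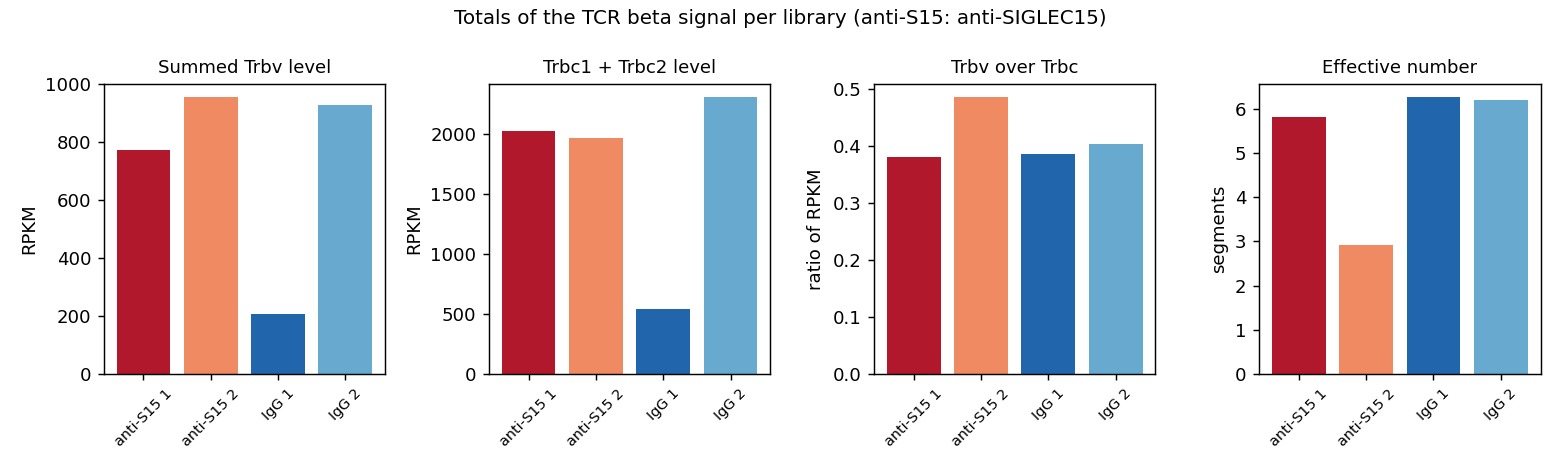
Bars give, for each library, the summed Trbv level and the summed Trbc1 and Trbc2 level (RPKM), the ratio of these sums, and the effective number of Trbv segments, with the anti-SIGLEC15 libraries left of the IgG libraries and all axes starting at 0. IgG replicate 1 is low in both sums, at 208 and 538 RPKM, but not in the ratio, at 0.386, and the effective number is lowest in anti-SIGLEC15 replicate 2, at 2.91.

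Evenness of use was measured by the effective number of segments, the exponential of the Shannon entropy of the shares. It equals the number of equally used segments that would give the same entropy. It was 5.81 and 2.91 with anti-SIGLEC15, against 6.26 and 6.20 with IgG. Both anti-SIGLEC15 libraries were below both IgG libraries, by a small margin for replicate 1. The means were 4.36 ± 2.05 and 6.23 ± 0.0434 (SD, n = 2 each), and the exact permutation test gave p = 0.333. The difference of -1.87 was -0.42 without anti-SIGLEC15 replicate 2. Counted in reads, the effective number was 6.01 and 2.94 with anti-SIGLEC15 and 5.98 and 6.28 with IgG, so the groups overlapped. Without Trbv15 the order turned, with 10.3 and 7.67 with anti-SIGLEC15 against 5.62 and 5.79 with IgG. The 3 largest segments of each library held 73.7% and 89.3% with anti-SIGLEC15, and 76.4% and 75.8% with IgG. The number of segments needed to reach 90% was 8 and 4 with anti-SIGLEC15 and 7 and 7 with IgG, although 20 to 24 segments had a read in each library.

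The distance between 2 libraries was taken as the percentage points of share that would have to move between segments to make them equal. The anti-SIGLEC15 pair lay 21.8 points apart and shared 4 of their 5 largest segments. The IgG pair lay 61.9 points apart and shared 2 of 5. Distances between treatments were 74.5 and 78.3 points from IgG replicate 1 to the anti-SIGLEC15 libraries, and 42.4 and 50.3 points from IgG replicate 2. IgG replicate 2 was therefore closer to each anti-SIGLEC15 library than to the other IgG library. Alpha chain V segments gave 40.0 points within anti-SIGLEC15, 57.8 to 78.2 between treatments and 75.8 within IgG.

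**Figure D4:**
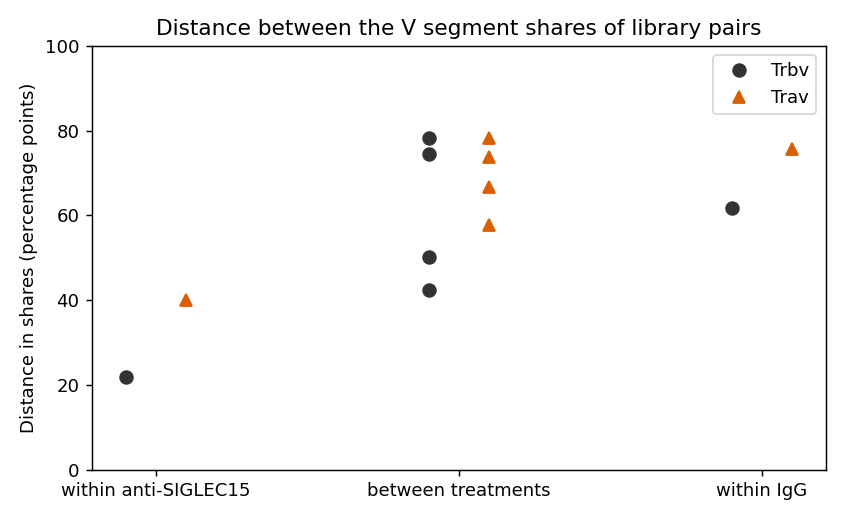
Each point is the distance in V segment shares (percentage points, linear axis) between 2 libraries, within anti-SIGLEC15, between treatments or within IgG, with circles for Trbv and triangles for Trav. The IgG pair, at 61.9 points in Trbv, lies above 2 of the 4 distances between treatments.

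The leading alpha chain segment also differed between libraries. It was Trav12-2 with anti-SIGLEC15 (44.0% and 58.0% of summed Trav RPKM), Trav6d-4 in IgG replicate 1 (36.4%) and Trav13-1 in IgG replicate 2 (33.4%), and duplicated Trav genes can share reads. Trav12-2 was also present with IgG, at 10.7% and 20.5%. In the beta locus, Trbc1, which lies with the first J cluster, made up 18.4% and 15.4% of summed Trbc RPKM with anti-SIGLEC15 and 19.9% and 39.0% with IgG. The first J cluster held 46.5% and 36.0% of Trbj reads with anti-SIGLEC15 (172 and 136 reads in all), against 29.4% and 62.4% with IgG (51 and 388 reads). Of the 14 Trbj segments with a read, 21.4% had a higher and 14.3% a lower share in each anti-SIGLEC15 library than in the IgG libraries. IgG replicate 2, the library led by Trbv12-2, was thus highest in both Trbc1 and first-cluster J segments.

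None of the other genes of the receptor complex or of its assembly passed limma. All 7 genes of the receptor and CD3 complex were tested, 0 were called, and 1, Trbc2, lay higher in both anti-SIGLEC15 libraries, at 1654 and 1662 RPKM against 431 and 1405 RPKM with IgG. This pattern was found in 12.1% of all genes tested, so 1 of 7 is near that share. The median log2 fold change of the 7 genes was 0.53, and each had its lowest level in IgG replicate 1. Of 12 genes of V(D)J recombination and end joining, Rag1 and Rag2 had no row, 8 were tested and 0 were called. Of the 10 with a row, 2, Nhej1 and Hmgb2, lay higher in both anti-SIGLEC15 libraries, as did 12.1% of all genes tested, and 0 lay lower. Dntt, the polymerase that adds untemplated bases at the junctions of developing T cells, had 0 reads in all libraries. Among markers of other T cells that use Trbv segments, the 5 CD4 T cell genes summed to 23.4 and 19.9 RPKM with anti-SIGLEC15 and 22.3 and 20.8 RPKM with IgG. Of these 5, 1 lay higher in both anti-SIGLEC15 libraries, a pattern found in 12.1% of all genes tested, and 0 lay lower. It was Cd40lg, at 1.48 and 0.862 RPKM against 0.349 and 0.619 RPKM with IgG. Cd4 measured 6.83 and 4.66 RPKM with anti-SIGLEC15 and 2.04 and 4.89 RPKM with IgG. Zbtb16, a transcription factor of natural killer T cells, measured 0.784 and 0.319 RPKM with anti-SIGLEC15 and 1.22 and 0.525 RPKM with IgG. Zbtb7b, a transcription factor of the CD4 lineage, measured 7.999 and 4.82 RPKM with anti-SIGLEC15 and 15.6 and 5.53 RPKM with IgG. Traj18, the J segment of the invariant natural killer T cell alpha chain, measured 10.6 and 19.4 RPKM with anti-SIGLEC15 and 1.89 and 15.6 RPKM with IgG. Trav11, also on the list of invariant T cell markers, had no row. Counts per gene do not show which V segment Traj18 was joined to, so these values do not measure that chain. Of the 4 markers on that list with a row, 1 lay higher in both anti-SIGLEC15 libraries and 0 lay lower. It was Trav1, at 1.20 and 0.181 RPKM against 0.168 and 0 RPKM with IgG. Cd40lg and Trav1 did not pass the filter and were not tested. Cd8a measured 290 and 315 RPKM with anti-SIGLEC15, and 115 and 351 RPKM with IgG.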

How the data were processed

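Per the labels' protocols, RNA was enriched with oligo-coated beads and read on the DNBSEQ-G50 platform. The deposited values are read as RPKM computed by the authors, since a value times the GENCODE M21 exon length was a whole multiple of a step per library, within 0.02, for 98.9% to 99.0% of genes under 1000 reads. The unit is not named in the files. Per the submitters' processing notes, GRCm38 and mm10 were the builds. An aligner or counting tool is not given in the sources used here. Reads across a rearranged junction are not contiguous in the genome, and how they were counted is not stated. Symbols matched 36346 of 36464 IDs.

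Shares are of summed Trbv RPKM, or of reads. Levels were tested with limma 3.58.1 (R 4.3.3; trend, robust) on log2(RPKM + 1) for genes with at least 1 RPKM in 2 libraries, which understates changes of low genes. Single values had exact permutation tests. Segments with a mean share of at least 3% were given in every library; others, and genes outside the family, were named after their values were seen. Members and lists were chosen with earlier results of these data known. Alternatives were other pseudocounts, filters, scalings, reads in place of RPKM, limma-voom (at least 10 reads in all), leaving out each library, and a replicate block. Python 3.11.15, numpy 2.4.6, pandas 2.3.3, scipy 1.17.1, biopython 1.88 and matplotlib 3.10.9 were used.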

Additional observations from a re-analysis of the deposited data

How the results depend on the processing

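Under settings that kept all 4 libraries, 100 of 103 recomputed values kept their direction and their side of the threshold, or their count within 1.5 times. The others came from leaving Trbv15 out of the sum, chosen after the data were seen: the difference in effective number was then 3.27, in pseudogene share 0.114 percentage points, and 1 segment had a lower share. Part of the 100 was fixed in advance, so the tally is only in part a measure of robustness. The replicate block changes no difference of means, and a filter changes no log2 fold change. No permutation p of 2 libraries against 2 can fall under 0.05. With a library left out in turn, the difference in summed log2 level ran from -0.11 to 2.04, in effective number from -3.32 to -0.42, in Trbv13 family share from -0.849 to 1.395, in Trbv16 share from -6.94 to 0.264 percentage points and in the log2 fold change of Trbv12-2 from -2.92 to 0.10. Segments with a higher share numbered 6 to 12 and with a lower share 5 to 11, which grows by construction with fewer libraries. Calls ran from 0 to 12 segments and from 0 to 2251 genes, with none when an anti-SIGLEC15 library was left out. The cause of these shifts was not tested. Relative to the CD3 chains the summed log2 level differed by 0.49, and relative to Trbc1 and Trbc2 by 0.12. Replicate numbers are shared by the treatments, and the labels do not say whether same-numbered libraries are paired. The correlation of same-numbered deviations was 0.33 (12484 genes, 2 pairs of libraries), and a pairing was not tested. With the replicate block limma called 0 Trbv segments. Before adjustment 303 genes then had a p under 0.05, against 146 without the block. Among Trbv segments these numbers were 7 and 6. Depth limits the rare segments, above all in IgG replicate 1, where 3 reads are 0.216% of Trbv reads.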

Other observations

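Among beta chain J segments, Trbj2-7 had the most reads in both anti-SIGLEC15 libraries. It held 27.3% and 36.8% of Trbj reads with anti-SIGLEC15 (47 and 50 reads), against 13.7% and 9.79% with IgG (7 and 38 reads). The leading J segments were Trbj2-2 in IgG replicate 1 (11 reads) and Trbj1-5 in IgG replicate 2 (59 reads). Which J segment was joined to which V segment cannot be read from counts per gene.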
